A study of Homo sapiens with 6 samples.

Results

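The genes described here are 35 genes of the desmosome and of squamous differentiation, chosen by name and found by Entrez ID among the 23459 genes of the count table. They comprise 10 desmosome genes, 9 cornified envelope genes, 6 kallikreins, 6 cystatins and clade B serpins, and 4 further differentiation markers. The cystatins and serpins are listed as protease inhibitors by family, not by shown activity.

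Desmosomes are the spot-like junctions that anchor the keratin filaments of neighbouring epithelial cells to each other. Desmogleins and desmocollins are the cadherins that bridge the gap, plakoglobin and the plakophilins form the plaque beneath them, and desmoplakin ties the plaque to keratin. In squamous epithelia, differentiating cells also build a cornified envelope, in which transglutaminase cross-links involucrin, small proline-rich (SPRR) proteins, envoplakin and periplakin beneath the membrane, while kallikreins cleave desmosomal proteins at the surface and cystatins and clade B serpins restrain proteases. MCF10A, an untransformed human mammary epithelial line of basal character, forms desmosomes in culture and is not a cornifying tissue.

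The study compared MCF10A cells transfected with 20 nM of a non-targeting siRNA pool (siCtrl, 3 libraries) with cells transfected with siRNA against YAP and TAZ (siYAP/TAZ, 3 libraries). All cells were grown with horse serum, insulin, hydrocortisone, cholera toxin and EGF, and the column names give them as wild type. RNA was read from the 3′ end of polyadenylated transcripts. YAP and TAZ, the latter encoded by WWTR1, are the transcriptional coactivators at the end of the Hippo pathway, and the comparison addresses which genes depend on them. The labels do not say whether replicates were separate cultures, so p-values measure the spread between these libraries only.

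Among the 6 libraries, totals were 3175149 to 4317286 counts. The titles and descriptions of siCtrl replicate 2 and siYAP/TAZ replicate 2 name opposite groups; the descriptions, which are also the column names, were used. YAP1 (189, 204 and 210.3 against 116, 118 and 112 CPM, which are counts scaled to libraries of equal size) and WWTR1 (109, 109 and 102 against 70.5, 67.1 and 59.8 CPM) were lower in every library described as siYAP/TAZ than in any described as siCtrl. Both fell, with edgeR adjusted p-values of 0.0138 and 0.0311, and 57.5% and 61.8% of the siCtrl mean remained, so the siRNAs left a large part of these transcripts. Over all genes, siCtrl replicate 2 stood apart from the other siCtrl libraries, at 7.29 on the first principal component where they lay at -44.1 and -36.1 and the siYAP/TAZ libraries lay at 10.3 to 34.9. It had the highest CPM of the siCtrl libraries for 13 of the 18 members that passed the low-count filter. Results are therefore given also without it and with the replicate number as a block, since same-numbered libraries deviated together. For a member that was highest in this library, leaving it out lowers the siCtrl mean and raises the fold change by construction. Calls made without it are thus no independent support for a rise. All 8 basal epithelial markers were detected, with a summed level of 1877 to 2683 CPM in siCtrl and 1541 to 1989 CPM in siYAP/TAZ. The 9 luminal markers summed to 152 to 172 and 147 to 153 CPM, the 9 mesenchymal markers to 250.2 to 292 and 263 to 307 CPM, and the 5 immune markers to 4.88 to 10.2 and 3.26 to 7.60 CPM. Most of the mesenchymal sum was PDGFRA, with means of 161 CPM in siCtrl and 167 CPM in siYAP/TAZ. Within that sum ZEB2 was higher in siYAP/TAZ (8.86 against 22.1 CPM) and CDH2 lower (32.8 against 20.7 CPM), both with overlapping groups. ELF5, COL1A2, COL3A1 and LYZ had no count in any library. Whether the lower summed basal level has a part in the results was not tested.

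After depletion of YAP and TAZ, PERP, a tetraspan protein of desmosomes and a p53 and p63 target, was the one member called at an adjusted p of 0.05 when all 6 libraries were fitted by group. Of the members, 18 passed the low-count filter. PERP rose, which is 1 member called higher where 0.743% of all 12510 genes tested were called higher, and 0 members were called lower where 1.22% of all genes were. At an unadjusted p under 0.05 in edgeR, 7 members were higher and 1 lower, beside 8.4% and 9.27% of all genes. DESeq2 called 2 higher, PERP and SPRR1B, and 0 lower, beside 1.96% and 2.57% of all genes. Without the low-count filter edgeR called 3 higher (PERP, SPRR1B and LY6D) and 0 lower, beside 1.34% and 1.56%. With the replicate block, DSP, DSC2, PKP2, PERP, PPL, CSTA and CSTB rose and SERPINB3 and SERPINB4 fell, so that 7 members were called higher where 4.66% of all genes were and 2 lower where 5.44% were. Without siCtrl replicate 2, DSP, DSC2, DSC3, PKP2, PERP, PPL, CSTB and SPRR1B rose and SFN fell, so that 8 were called higher and 1 lower, beside 6.08% and 6.22% of all genes. Of the 8, 6 were among the 7 higher with the block. Both fits share their remaining libraries, so this overlap is no independent agreement. Without both libraries whose labels conflict, 7 were called higher and 1 lower, beside 4.65% and 4.64%. The median log2 fold change of the 18 members was 0.27, and that of all genes tested was -0.00093. By list it was 0.36 for the 9 desmosome genes tested, of which 8 had a positive value, 0.20 for 3 envelope genes and 0.32 for 5 protease inhibitors. Groups did not overlap for 6 of the 18, beside 22.1% of all genes tested, with 5 members higher (11.0% of all genes) and 1 lower (11.1%).

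**Figure D1:**
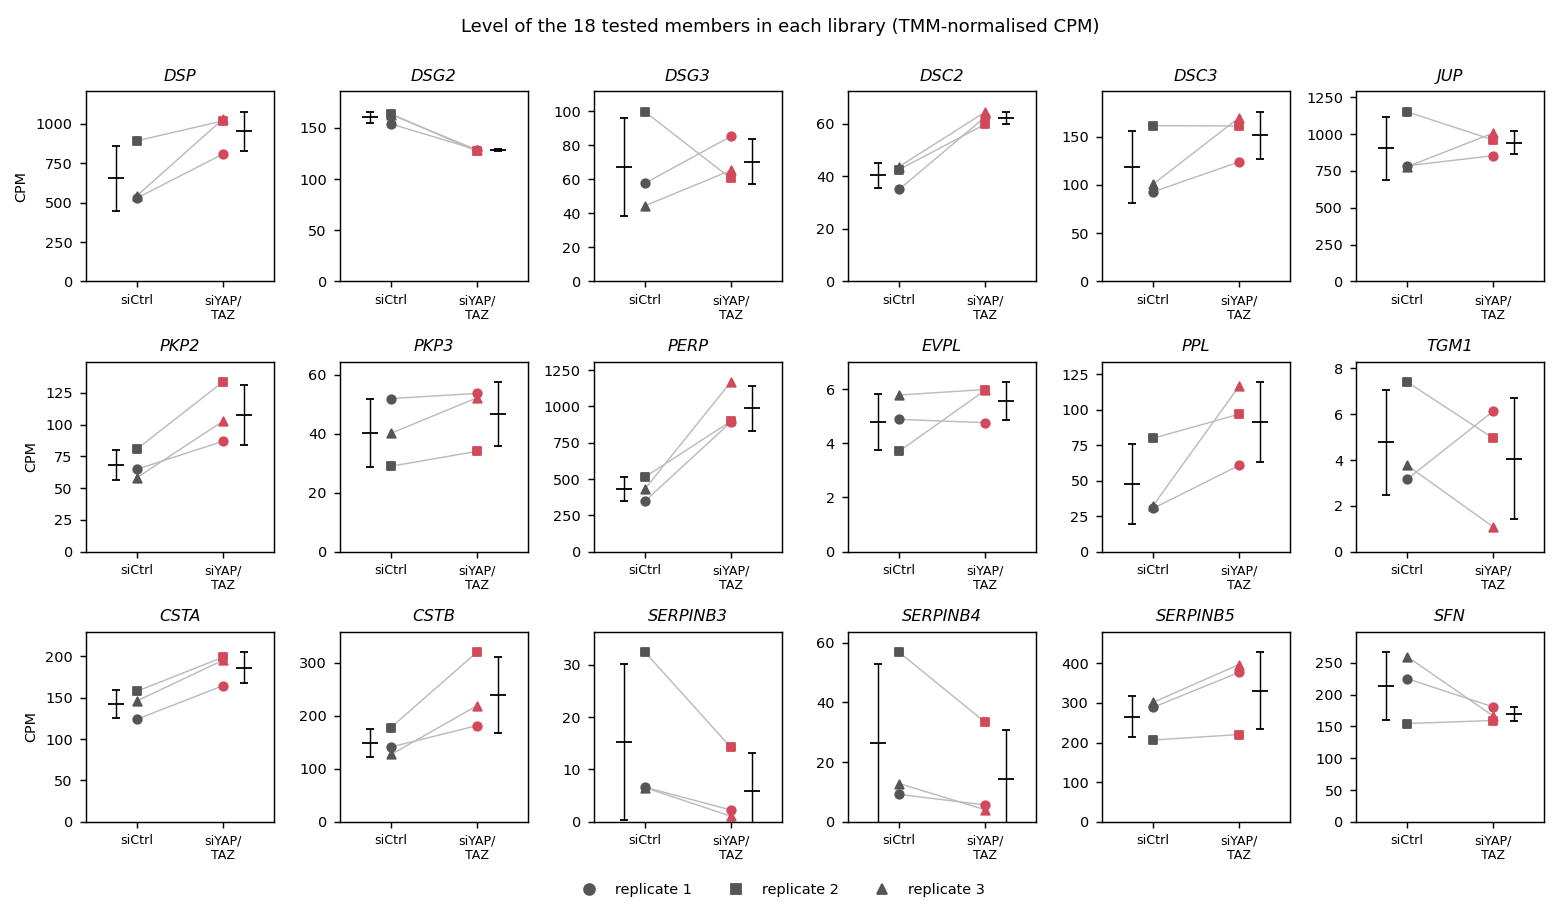
CPM (vertical axis, from 0) of each of the 18 tested members in the 3 siCtrl (grey) and 3 siYAP/TAZ (red) libraries; marker shapes give the replicate number, lines join libraries of the same number, and black bars are the mean and SD of a group (n = 3). PERP lies at 348 to 515 CPM in siCtrl and 892 to 1169 CPM in siYAP/TAZ, while SERPINB3 and SERPINB4 are highest in replicate 2 of each group.

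PERP (Entrez 64065), on the minus strand of chromosome 6 from 138409642 to 138428556 in GRCh37, measured 348, 515 and 433 CPM in the siCtrl libraries against 892, 898 and 1169 CPM after siYAP/TAZ. Every siYAP/TAZ library was above every siCtrl library. The means were 432 ± 83.2 and 986 ± 158 CPM (SD, n = 3), a 2.28-fold difference. On the log2 scale this was 1.19 with an SE of 0.19, and the quasi-likelihood test of edgeR gave an adjusted p of 0.0168. It was 1.20 with the block (adjusted p of 0.000746) and 1.34 without siCtrl replicate 2 (0.00181). Leaving out replicate 1 (0.0561) or 3 (0.114) of siCtrl, or replicate 2 (0.0505) or 3 (0.110) of siYAP/TAZ, ended the call, with log2 fold changes of 1.05 to 1.26. In bulk RNA, a change in the share of cells that express a gene and a change in RNA per cell cannot be told apart.

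The promoter window of PERP is shown because it is the member called with all libraries, and it holds the letters of an AP-1 site. The window runs from 250 bases before to 50 after the annotated start (RefSeq, GRCh38.p14, chr6:138107370-138107669, minus strand), and capitals mark the match.

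PERP: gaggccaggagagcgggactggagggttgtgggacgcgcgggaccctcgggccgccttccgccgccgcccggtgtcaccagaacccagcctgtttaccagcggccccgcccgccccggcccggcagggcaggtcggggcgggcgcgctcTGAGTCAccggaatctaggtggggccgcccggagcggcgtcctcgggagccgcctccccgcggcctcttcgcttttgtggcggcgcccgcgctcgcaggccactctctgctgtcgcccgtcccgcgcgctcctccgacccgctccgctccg

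The promoter table held 24 of the 35 members. Both strands were searched for the AP-1 letters TGANTCA, the TEAD letters GGAATG and the GRHL letters AACCNGTT. AP-1 letters were found in 8 members (PERP, IVL, SPRR1A, SPRR1B, SPRR3, SERPINB5, SERPINB13 and SFN), beside 7.71% of all 35116 promoter windows. TEAD letters were found in 6 (SPRR1A, SPRR1B, SPRR3, KLK5, SERPINB3 and SERPINB4), beside 14.0% of all windows, and GRHL letters in 0, beside 1.73%. The match in PERP begins at position -101 relative to the annotated start. No match overlapped another. These matches are a description of letters and show no binding.

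The plaque and cadherin genes of the desmosome differed among themselves. DSP, which encodes desmoplakin, measured 529, 892 and 544 CPM in the siCtrl libraries against 807, 1018 and 1028 CPM after siYAP/TAZ. It was higher in siYAP/TAZ in 3 of 3 same-numbered pairs, but siCtrl replicate 2 lay above siYAP/TAZ replicate 1. The means were 655 ± 206 and 951 ± 125 CPM (SD, n = 3). The log2 fold change of 0.54 (SE 0.22) did not pass (adjusted p of 0.247 in edgeR), whereas 0.57 (SE 0.14) with the block did (0.0272), as did 0.83 (SE 0.16) without siCtrl replicate 2 (0.00775).

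PKP2, a plakophilin of simple and basal epithelia, measured 64.9, 80.8 and 58.3 CPM in the siCtrl libraries against 86.8, 134 and 103 CPM after siYAP/TAZ. The groups did not overlap. Its log2 fold change was 0.66 with an SE of 0.19 (edgeR adjusted p of 0.113, against 0.00998 with the block and 0.0210 without siCtrl replicate 2). The other plaque genes did not pass in any of these 3 fits. JUP, which encodes plakoglobin, measured 785, 1152 and 779 CPM in the siCtrl libraries against 854, 961 and 1007 CPM after siYAP/TAZ (log2 fold change 0.06, SE 0.18, adjusted p of 0.908). PKP3 had 52.0, 29.0 and 40.2 against 53.7, 34.0 and 52.2 CPM (0.21, SE 0.24, 0.701). PKP1, the plakophilin of stratified epithelia, gave no count with siCtrl against 2, 2 and 1 counts with siYAP/TAZ, no more than the floor of 3 counts in any library.

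Of the 4 desmosomal cadherins among the members, which lie in a cluster on chromosome 18 (GRCh37, 28569331 to 29128971), desmocollin 2 passed in both alternative fits. DSC2 measured 35.04, 42.6 and 43.7 CPM in the siCtrl libraries against 62.6, 59.8 and 64.5 CPM after siYAP/TAZ. Every siYAP/TAZ library exceeded every siCtrl library, and siCtrl replicate 2 lay within the range of the other siCtrl libraries. Its difference was 0.62 on the log2 scale with an SE of 0.15 (edgeR adjusted p of 0.0659, against 0.0179 with the block and 0.0222 without siCtrl replicate 2). DSG2, desmoglein 2, had lower values after depletion, with 154, 164 and 163 CPM with siCtrl against 129, 127 and 129 CPM with siYAP/TAZ. Its groups did not overlap either, but its log2 fold change of -0.32 (SE 0.11) did not pass in any of the 3 fits (adjusted p of 0.189, 0.0928 and 0.126).

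DSC3, a desmocollin of basal layers, measured 92.8, 161 and 101 CPM in the siCtrl libraries against 124, 161 and 169 CPM after siYAP/TAZ. It passed only without siCtrl replicate 2 among the 3 fits, by 0.65 on the log2 scale with an SE of 0.16 (edgeR adjusted p of 0.0257), against 0.36 (SE 0.22) and 0.433 with all libraries and 0.124 with the block. DSG3, the desmoglein of basal keratinocytes, measured 57.7, 99.7 and 44.5 CPM in the siCtrl libraries against 85.2, 60.5 and 65.3 CPM after siYAP/TAZ. Its siYAP/TAZ libraries all lay within the siCtrl range, and by group it differed by 0.07 on the log2 scale (SE 0.27, adjusted p of 0.919). Their direction differed between pairs, since siYAP/TAZ replicate 2 was below siCtrl replicate 2 and the other pairs had the higher value in siYAP/TAZ.

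The balance of the cadherins was compared within each library, a ratio chosen after the values were seen. The counts of DSC2 divided by those of DSG2 gave 0.228, 0.260 and 0.268 in siCtrl and 0.486, 0.470 and 0.501 in siYAP/TAZ. The ratio was higher in each siYAP/TAZ library than in any siCtrl library, by 0.95 on the log2 scale. Since neither gene overlapped between groups and they differed in opposite directions, this separation was fixed by the choice of genes. An exact permutation test of the library labels gave a p of 0.1. That is the smallest p it can give with 3 libraries per group, so it decides nothing here. For both desmocollins over both desmogleins the ratio was 0.604, 0.774 and 0.696 in siCtrl and 0.871, 1.18 and 1.21 in siYAP/TAZ, a difference of 0.64 on the log2 scale. The same permutation test again gave its smallest possible p of 0.1. DSC2 and DSG2 each share their locus with an antisense transcript (DSCAS and DSG2-AS1), as DSP does with DSP-AS1, and whether reads were counted by strand is not stated.

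**Figure D2:**
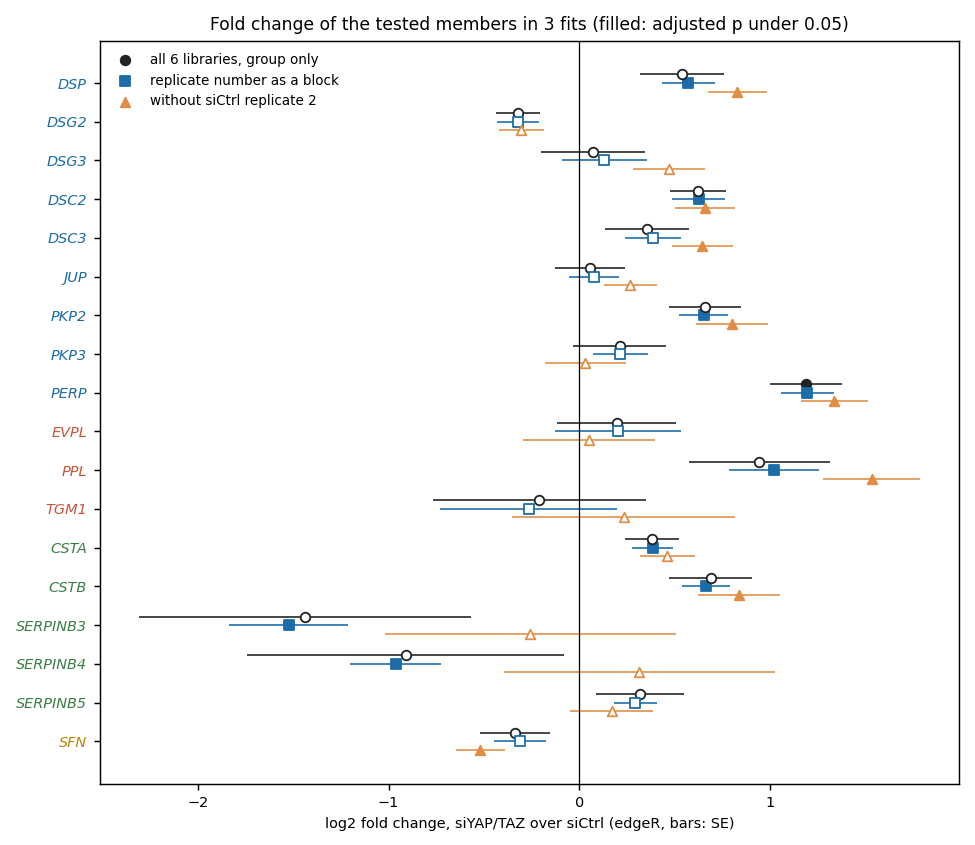
Log2 fold change of siYAP/TAZ over siCtrl (horizontal axis; bars are the SE from edgeR) for the 18 tested members in 3 fits: all 6 libraries by group (black circles), with the replicate number as a block (blue squares) and without siCtrl replicate 2 (orange triangles); filled symbols passed an adjusted p of 0.05. PERP is filled in all 3 fits, and SERPINB4 moves from -0.91 to 0.32 when siCtrl replicate 2 is left out.

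Of the 9 cornified envelope genes, PPL, EVPL and TGM1 passed the low-count filter. PPL, which encodes periplakin, the plakin that links the envelope to desmosomes and keratin, measured 30.4, 79.9 and 32.4 CPM in the siCtrl libraries against 60.7, 96.9 and 116 CPM after siYAP/TAZ. It was higher in siYAP/TAZ in 3 of 3 same-numbered pairs, while siCtrl replicate 2 lay above siYAP/TAZ replicate 1. The means were 47.6 ± 28.02 and 91.3 ± 28.2 CPM (SD, n = 3). By group, PPL was higher by 0.94 on the log2 scale (SE 0.37), which did not pass in edgeR with its adjusted p of 0.229. It passed with the block at 1.02 (SE 0.24, 0.0230) and without siCtrl replicate 2 at 1.54 (SE 0.25, 0.00445). PPL overlaps SEC14L5 on the opposite strand.

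Its partner EVPL, envoplakin, measured 4.88, 3.70 and 5.78 CPM in the siCtrl libraries against 4.76, 5.95 and 5.98 CPM after siYAP/TAZ (a log2 difference of 0.20 with an SE of 0.31, edgeR adjusted p of 0.791). TGM1, the keratinocyte transglutaminase, gave 11, 24 and 15 counts with siCtrl against 27, 15 and 4 with siYAP/TAZ. By group it differed by -0.21 on the log2 scale (SE 0.56, adjusted p of 0.881), and without siCtrl replicate 2 it was 0.23.

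SPRR1B, a small proline-rich envelope precursor, had the highest count among the members under the low-count filter. It gave 2, 1 and 1 counts with siCtrl against 41, 6 and 17 with siYAP/TAZ, so the siCtrl libraries did not exceed the floor of 3 counts and every siYAP/TAZ library was above it. Summed over libraries and scaled to their totals, the ratio was 15.2, with a 95% interval of 5.67 to 57.6 that covers counting error only (exact, conditional on the sum). It did not pass the low-count filter with all libraries. It was called higher by DESeq2 (adjusted p of 0.00440), by edgeR without the filter (0.00577) and by edgeR without siCtrl replicate 2 (0.0208), but not by edgeR without replicate 1 (0.102) or 3 (0.195) of siCtrl. SPRR1A had 1, 0 and 0 counts against 3, 0 and 0. The last 300 bases of the SPRR1A and SPRR1B transcripts were 64.7% identical and shared no stretch of 50 bases.

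The promoter window of SPRR1B is shown because it holds letters of both AP-1 and TEAD sites (RefSeq, GRCh38.p14, chr1:153030953-153031252, plus strand). Capitals mark the matches, with AP-1 at -141 and -111 and TEAD at -90 relative to the annotated start.

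SPRR1B: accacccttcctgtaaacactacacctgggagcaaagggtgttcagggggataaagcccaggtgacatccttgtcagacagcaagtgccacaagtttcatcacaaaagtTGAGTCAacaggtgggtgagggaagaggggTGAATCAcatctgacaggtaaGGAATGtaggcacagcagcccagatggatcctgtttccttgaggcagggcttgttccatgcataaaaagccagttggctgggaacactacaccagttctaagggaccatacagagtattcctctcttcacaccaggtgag

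The other envelope genes were at or near the floor. Involucrin (IVL), the early envelope protein, gave 2, 0 and 1 counts with siCtrl against 0, 0 and 1 with siYAP/TAZ. SPRR2D had 6, 0 and 1 against 0, 1 and 0, and SPRR3 had 0 in every library. CNFN, which encodes cornifelin, had 1, 2 and 3 against 6, 1 and 2. A difference in these genes was not detectable at this depth, where 3 counts correspond to 0.680 to 0.992 CPM depending on the library.

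Kallikreins were at or near 0 in both groups. KLK6 and KLK7 had no count in any library, which allows up to 0.680 to 0.992 CPM per library. KLK5, KLK8, KLK10 and KLK11 reached at most 2 counts in a library. Summed over the 6 genes there were 4, 0 and 2 counts with siCtrl against 0, 2 and 0 with siYAP/TAZ, so no direction can be given.

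**Figure D3:**
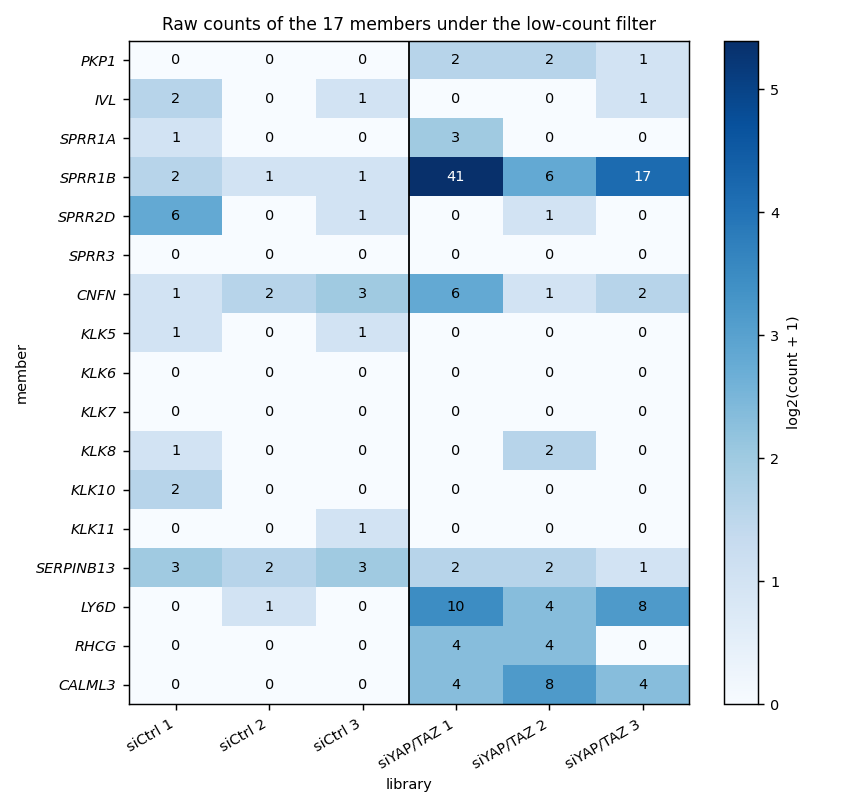
Raw counts (numbers; shading is log2(count + 1)) of the 17 members under the low-count filter, one line per gene, in the 3 siCtrl and 3 siYAP/TAZ libraries. SPRR1B reaches 41 counts and LY6D 10 in siYAP/TAZ, while KLK6, KLK7 and SPRR3 are at 0 throughout.

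Among the protease inhibitors, the cystatins passed with the block as higher and 2 clade B serpins as lower. CSTB, the ubiquitous cytosolic inhibitor of cysteine cathepsins, measured 141, 178 and 127 CPM in the siCtrl libraries against 182, 320.3 and 219 CPM after siYAP/TAZ. The groups did not overlap, with the margin set by siCtrl replicate 2 and siYAP/TAZ replicate 1. This was 0.69 on the log2 scale with an SE of 0.22 (edgeR adjusted p of 0.144, against 0.00874 with the block and 0.0294 without siCtrl replicate 2). CSTA, its relative that is built into the envelope, measured 124, 158 and 146 CPM in the siCtrl libraries against 165, 199 and 195 CPM after siYAP/TAZ. Its groups did not overlap either. By group its difference was 0.38 on the log2 scale (SE 0.14), edgeR giving 0.211 as adjusted p, and it passed only with the block among the 3 fits (0.39, SE 0.11, 0.0481; 0.0596 without siCtrl replicate 2).

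SERPINB3 and SERPINB4, the squamous cell carcinoma antigens, differed more between replicate numbers than between groups. SERPINB3 measured 6.61, 32.4 and 6.53 CPM in the siCtrl libraries against 2.27, 14.2 and 1.09 CPM after siYAP/TAZ, and SERPINB4 had 9.19, 56.8 and 12.8 CPM against 5.67, 33.4 and 4.08 CPM. As counts, SERPINB3 had 23, 105 and 26 against 10, 43 and 4, and SERPINB4 had 32, 184 and 51 against 25, 101 and 15. The SERPINB3 count of siYAP/TAZ replicate 3 thus lay near the floor of 3 counts. In both groups replicate 2 was the highest library, and in 3 of 3 same-numbered pairs the siYAP/TAZ library was the lower. By group alone the log2 fold changes were -1.44 (SE 0.87) and -0.91 (SE 0.83), and edgeR gave 0.426 and 0.617 as adjusted p. With the block they were -1.52 (SE 0.31) and -0.96 (SE 0.24), with adjusted p-values of 0.0126 and 0.0300. Without siCtrl replicate 2, which leaves siYAP/TAZ replicate 2 without its partner, they were -0.26 and 0.32 (0.864 and 0.814). Without siYAP/TAZ replicate 2 they were -3.10 and -2.39 (0.181 and 0.244).

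These paralogs neighbour each other on the minus strand of chromosome 18 (GRCh37, 61322431 to 61329127 for SERPINB3 and 61304493 to 61311490 for SERPINB4), SERPINB3 overlaps SERPINB11 on the opposite strand, and their reads cannot be fully told apart. Their transcripts were 95.7% identical, the last 300 bases 96.3%, and 22.7% of the stretches of 50 bases in that end occurred in both. Whether and how reads that match both were counted is not stated. Their promoter windows are shown because they are near copies of each other, with 4 differing bases of 300. Counted from the first base of the window, with the SERPINB3 base first, these are G126A, G201A, C228T and T260C. Both hold TEAD letters on the opposite strand at -8 relative to the annotated start, in capitals (RefSeq, GRCh38.p14, chr18:63661844-63662143 for SERPINB3 and chr18:63644207-63644506 for SERPINB4, minus strand).

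SERPINB3: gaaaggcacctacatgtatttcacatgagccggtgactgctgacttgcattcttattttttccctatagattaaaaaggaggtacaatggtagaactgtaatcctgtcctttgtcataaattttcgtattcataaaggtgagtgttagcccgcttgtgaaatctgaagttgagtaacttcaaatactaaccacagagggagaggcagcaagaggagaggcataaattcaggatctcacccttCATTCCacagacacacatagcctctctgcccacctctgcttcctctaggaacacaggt

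SERPINB4: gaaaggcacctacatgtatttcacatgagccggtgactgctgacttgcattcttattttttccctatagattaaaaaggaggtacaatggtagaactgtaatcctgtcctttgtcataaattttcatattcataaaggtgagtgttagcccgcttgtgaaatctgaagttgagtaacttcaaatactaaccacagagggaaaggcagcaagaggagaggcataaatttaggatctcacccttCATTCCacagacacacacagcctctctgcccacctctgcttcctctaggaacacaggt

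SERPINB5, which encodes maspin, a mammary epithelial serpin, measured 289, 206 and 301 CPM in the siCtrl libraries against 377, 220.2 and 397 CPM after siYAP/TAZ. It was lowest in replicate 2 of each group, the reverse of SERPINB3 and SERPINB4, and higher in siYAP/TAZ in 3 of 3 pairs. Its log2 fold change of 0.32 (SE 0.23) did not pass in any of the 3 fits (adjusted p of 0.515, 0.132 and 0.653 in edgeR). SERPINB13, a serpin of differentiating keratinocytes, gave 3, 2 and 3 counts with siCtrl against 2, 2 and 1 with siYAP/TAZ, at or under the floor.

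Of the 4 further differentiation markers, SFN, 14-3-3 sigma, a p53 target and keratinocyte cell cycle inhibitor, was the only member past the filter. It measured 225, 155 and 259.8 CPM in the siCtrl libraries against 181, 159 and 167 CPM after siYAP/TAZ. Here siCtrl replicate 2 was the lowest of all 6 libraries. By edgeR, SFN differed by -0.34 on the log2 scale (SE 0.18, adjusted p of 0.376) with all libraries and -0.52 (SE 0.13, 0.0257) without siCtrl replicate 2, where it passed; with the block the adjusted p was 0.184.

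LY6D, a GPI-anchored marker of stratified epithelia, gave 0, 1 and 0 counts with siCtrl against 10, 4 and 8 with siYAP/TAZ. The ratio of summed counts was 20.9, with an exact 95% interval of 3.39 to 864 for counting error. It passed in edgeR without the low-count filter (adjusted p of 0.0393); it did not pass that filter elsewhere with all 6 libraries, and DESeq2 gave it no adjusted p. CALML3, an epithelial calmodulin-like protein, gave no count with siCtrl against 4, 8 and 4 with siYAP/TAZ. Set against a floor of 3 counts summed over the siCtrl group, its ratio was 5.08. Counting error in siYAP/TAZ and the spread of replicates are left out, so this is no lower bound. CALML3 did not pass in edgeR without the filter (adjusted p of 0.0522). RHCG, an ammonium transporter of squamous epithelia, gave no count with siCtrl against 4, 4 and 0 with siYAP/TAZ. Against the same floor its ratio was 2.54, with the same limit, and edgeR without the filter gave an adjusted p of 0.253. These genes were detected in siYAP/TAZ at a few counts, which is near the limit of this depth. Both LY6D and CALML3 overlap noncoding transcripts annotated on the opposite strand. Whether reads were counted by strand is not stated.

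**Figure D4:**
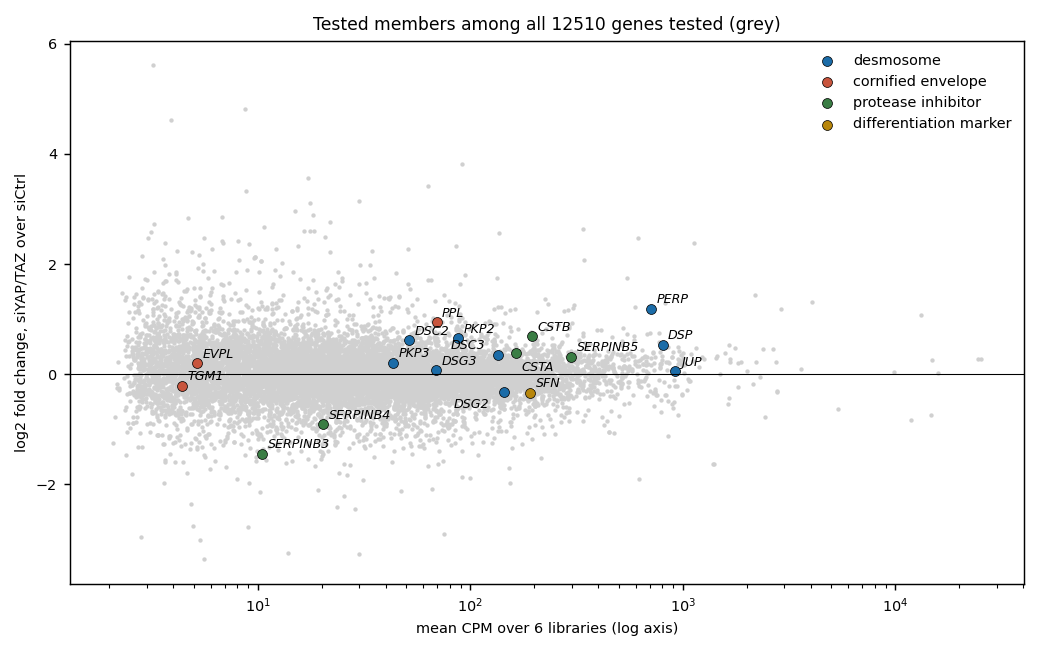
Log2 fold change of siYAP/TAZ over siCtrl (vertical axis) against mean CPM over the 6 libraries (horizontal, log axis) for all 12510 genes tested (grey) and the 18 tested members, coloured by list. PERP stands at 1.19, and the other members lie between -1.44 and 0.94.

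The same pathways were followed in 78 further genes, which are other desmosome, envelope, kallikrein, inhibitor and differentiation genes and transcription factors of squamous epithelia. Of these, 26 passed the low-count filter and 20 had no count in any library. With all 6 libraries by group, 2 were called higher and 0 lower beside 0.743% and 1.22% of all genes. At an unadjusted p under 0.05 in edgeR there were 7 and 3, beside 8.4% and 9.27%, and DESeq2 called 3 and 0, beside 1.96% and 2.57%. With the block, 6 rose and 4 fell, beside 4.66% and 5.44%. Without siCtrl replicate 2 there were 4 and 2, beside 6.08% and 6.22%.

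The genes called with all libraries were LYPD3 and EHF. LYPD3, a GPI-anchored protein of suprabasal keratinocytes, measured 4.31, 4.94 and 4.02 CPM in the siCtrl libraries against 19.9, 10.2 and 17.4 CPM after siYAP/TAZ. The groups were far apart, by 1.85 on the log2 scale with an SE of 0.32 (edgeR adjusted p of 0.0225). Its call ended on leaving out replicate 1 (0.0755) or 3 (0.135) of siCtrl, or replicate 1 (0.0623) or 3 (0.132) of siYAP/TAZ, with log2 fold changes of 1.65 to 1.84. EHF, an ETS factor of differentiating epithelia, measured 39.6, 34.3 and 15.1 CPM in the siCtrl libraries against 112, 113 and 66.4 CPM after siYAP/TAZ. Each siYAP/TAZ library exceeded every siCtrl library, by 1.72 on the log2 scale with an SE of 0.33 (edgeR adjusted p of 0.0350). The call was kept without siCtrl replicate 2 (0.00880) and lost without any other library, with adjusted p-values of 0.0509 to 0.111 and log2 fold changes of 1.39 to 1.99.

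With the replicate block, ELF3, ABCA12, TP63 and SLPI also rose. ELF3, an ETS factor like EHF, measured 5.74, 20.4 and 3.27 CPM in the siCtrl libraries against 12.9, 34.4 and 25.8 CPM after siYAP/TAZ. It was higher in 3 of 3 pairs, with the highest value of each group in replicate 2 (log2 fold change 1.49 with the block, adjusted p of 0.0250 in edgeR; 1.33 and 0.276 by group). ABCA12, the lipid transporter of the skin barrier, had 57.4, 52.5 and 39.5 CPM against 167, 73.1 and 74.8 CPM (1.00 with the block, 0.00728; 0.114 by group). TP63, the master factor of stratified epithelia, had 40.8, 43.5 and 62.8 CPM against 61.4, 85.3 and 74.5 CPM (0.59, 0.0379; 0.177 by group). SLPI, a secreted inhibitor of serine proteases, had 38.8, 58.3 and 37.2 CPM against 57.1, 73.1 and 56.8 CPM (0.50, 0.0440; 0.264 by group). Without siCtrl replicate 2, ELF3 (2.43, 0.00750) and SLPI (0.71, 0.0218) passed, and ABCA12 (1.13, 0.0549) and TP63 (0.50, 0.144) did not.

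The further genes that fell with the block were PKP4, DMKN, SERPINB1 and PI3. PKP4, a plakophilin relative found also at adherens junctions, measured 177, 153 and 174 CPM in the siCtrl libraries against 129.9, 125 and 119.7 CPM after siYAP/TAZ (log2 fold change -0.43 with the block, adjusted p of 0.0379 in edgeR; 0.109 by group). DMKN, dermokine of the suprabasal epidermis, had 66.3, 63.0 and 83.9 CPM against 44.4, 50.9 and 48.7 CPM (-0.56, 0.0299; 0.0994 by group). SERPINB1, an inhibitor of neutrophil proteases, had 62.9, 141 and 59.3 CPM against 48.7, 56.5 and 40.5 CPM (-0.76, 0.0249; 0.210 by group). PI3, which encodes elafin, had 39.3, 28.4 and 26.1 CPM against 25.6, 21.8 and 10.6 CPM (-0.74, 0.0488; 0.284 by group). Without siCtrl replicate 2, PKP4 (-0.49, 0.0239) and DMKN (-0.65, 0.0236) passed, and SERPINB1 (-0.33, 0.227) and PI3 (-0.75, 0.154) did not. For all 4 the groups did not overlap with all libraries.

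**Figure D5:**
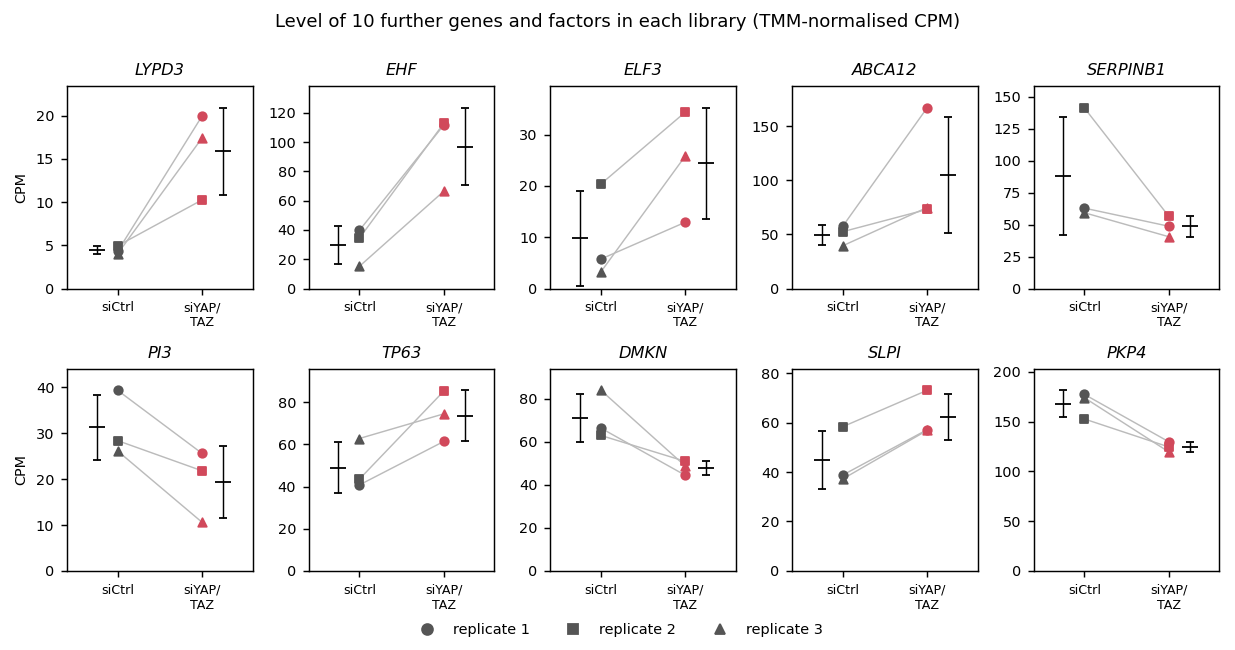
CPM (vertical axis, from 0) of the 10 further genes called with all libraries or with the replicate block in the 3 siCtrl (grey) and 3 siYAP/TAZ (red) libraries; marker shapes give the replicate number, lines join the same number, and black bars are the mean and SD (n = 3). EHF lies at 15.1 to 39.6 CPM in siCtrl and 66.4 to 113 CPM in siYAP/TAZ, and PKP4 is lower in every siYAP/TAZ library.

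FLG and KRT10, genes of epidermal differentiation, were chosen after their values were seen. FLG, filaggrin, measured 2.298, 2.47 and 2.51 CPM in the siCtrl libraries against 6.12, 3.31 and 2.99 CPM after siYAP/TAZ, and its log2 difference of 0.79 (SE 0.40) did not pass in edgeR (adjusted p of 0.345). KRT10, a suprabasal keratin, had 54.3, 52.5 and 48.5 CPM against 68.4, 56.9 and 62.8 CPM and did not pass either (0.28, SE 0.14, 0.335). Of the 24 further envelope genes 22 did not pass the low-count filter, and 11 had no count in any library.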

How the data were processed

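MCF10A RNA was sequenced as 3′ mRNA-Seq, and the authors deposited its raw counts in a single table of Entrez genes by 6 libraries (0 unnamed rows, 0 columns left unused). The submitters' processing notes name cutadapt 4.2, Bowtie2 2.3.5.1 and hg19. The gene annotation and the use of strand for these libraries are not given in the sources used here. Symbols came from RefSeq (GRCh38.p14, names and promoter windows only), which matched 23308 IDs with 99.7% of the counts, and gene coordinates from GENCODE lifted to GRCh37.

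Groups and replicate numbers were taken from the descriptions. Genes were tested over the whole table with the quasi-likelihood test of edgeR 4.0.16 in R 4.3.3, after its filterByExpr filter on low counts, using TMM factors and Benjamini-Hochberg adjustment over 12510 genes, at a threshold of 0.05. CPM values are TMM-normalised. Standard errors were derived from the F statistic. Each transcript gives reads at its 3′ end only, so no length scaling was made. The code was tested on simulated data. Alternatives were DESeq2 1.42.0, other scalings and filters, robust dispersion, a replicate block, the titles' groups and each library left out. No pair of libraries was identical, and their counts differed beyond sampling noise (chi-square per degree of freedom of 5.37 to 17.4 within groups). Between both libraries with conflicting labels it was 8.57. Within its group, siCtrl replicate 2 gave 17.4 and 14.1, and siYAP/TAZ replicate 2 gave 14.2 and 6.56.

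Deviations from group means correlated across genes between same-numbered siCtrl and siYAP/TAZ libraries, with r of 0.41, 0.34 and 0.13, all above 0.1, so the numbers in the descriptions were taken to pair the libraries. Deviations from a mean of 3 libraries sum to 0, so these values are not independent. The pairing was judged on the same counts that were then tested, and the labels do not state what same-numbered libraries shared. The titles carry other numbers for some libraries.

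Full values are given for members past the threshold by group, with the block or without siCtrl replicate 2 and for the most abundant member of each list, and by the same thresholds for at most 12 further genes. Members and lists were chosen with earlier results of these data known. No set test was run.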

Additional observations from a re-analysis of the deposited data

How the results depend on the processing

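The number of called members depended on the fit. With the replicate block, which changed no other call than those given with the results, 2 members were lower and 7 higher, and 4 further genes were lower and 6 higher. Without both libraries with conflicting labels there were 1 lower and 7 higher members and 1 lower and 5 higher further genes. DESeq2 gave 2 higher members, and no low-count filter gave 3. The mean of at least 50 counts gave 1 higher further gene. With the groups of the titles, 0 members and 0 further genes were called higher or lower in edgeR, with 1 higher of each at an unadjusted p under 0.05. With each library left out in turn, members lower ranged from 0 to 1, members higher from 0 to 8, further genes lower from 0 to 2 and further genes higher from 0 to 4. No member was called when replicate 1 or 3 of siCtrl or replicate 3 of siYAP/TAZ was left out, with 5, 5 and 4 higher at an unadjusted p under 0.05 in edgeR. Without siYAP/TAZ replicate 2, the 1 member called was SPRR1B and not PERP. The cause of these differences was not tested. RLE scaling, library size alone and robust dispersion gave the same counts as TMM. PERP was higher under every alternative, from 0.62 with the titles' groups to 1.40 on the log2 scale.

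Directions reversed as follows, as log2 fold changes. With the titles' groups, EVPL was -0.19, TGM1 0.30, CSTB -0.02, SERPINB3 0.36, SERPINB4 0.25, SERPINB1 0.36 and TP63 -0.07. TGM1 was 0.11 without both libraries with conflicting labels. With single libraries left out, TGM1 ranged from -0.69 to 0.24 (0.23 without siCtrl replicate 2, 0.24 without siYAP/TAZ replicate 3). DSG3 ranged from -0.16 to 0.47 (-0.02 lacking replicate 1 of siCtrl, -0.16 lacking its replicate 3, -0.09 lacking replicate 1 of siYAP/TAZ). JUP ranged from -0.04 (lacking replicate 1 or 3 of siCtrl) to 0.27, and SERPINB4 from -2.39 to 0.32 (lacking replicate 2 of siCtrl). None of the reversed values passed an adjusted p of 0.05. Depth limits the 17 members under the filter, 11 of which were at or under 3 counts in every library.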

Other observations

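Of the squamous transcription factors that did not pass, 2 are given with values, chosen after their values were seen. PRDM1, a terminal differentiation repressor, measured 3.45, 11.4 and 2.76 CPM in the siCtrl libraries against 4.31, 4.30 and 6.26 CPM after siYAP/TAZ, so that siCtrl replicate 2 was the highest of all libraries. KLF4, a barrier factor, had 4.88, 3.09 and 1.51 CPM against 4.31, 8.59 and 13.9 CPM, a log2 difference of 1.49 with an SE of 0.52 (edgeR adjusted p of 0.182), with overlapping groups.

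The ratio of SERPINB3 to SERPINB4 counts was 0.719, 0.571 and 0.510 in siCtrl and 0.400, 0.426 and 0.267 in siYAP/TAZ. The groups did not overlap. This ratio was chosen after the values were seen. An exact permutation test of the library labels gave a p of 0.1, the smallest it can give, and so decides nothing. The paralogs share sequence at their 3′ ends, and the part of shared reads in this ratio was not tested.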
